A study of Mus musculus with 7 samples.

Results

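The laminin genes Lama3, Lama4, Lama5, Lamb1, Lamb2 and Lamc1, the nidogen genes Nid1 and Nid2, and the proteoglycan genes Hspg2 (perlecan) and Agrn (agrin) were compared between wild-type and Sash1-knockout lung endothelium. These 10 genes were chosen by symbol, though with earlier results of these data known, from the 22180 genes with a probe set that carries 1 gene symbol. Each gene is represented by the probe set with the highest mean over all 7 arrays. All 10 passed the filter on dim genes, which left 16637 genes for testing. Both groups were E18.5 mouse embryos on a C57BL/6 background, and the comparison asks what loss of Sash1 changes in lung endothelium at that age. The 4 knockout samples were Sash1-/- in genotype, the 3 wild-type samples came from littermates, and the labels do not state which cells or exons the deletion affects. Viable cells positive for CD31 (an endothelial antigen) and negative for CD45 (leukocytes) and CD326 (epithelium) were sorted from each lung preparation and snap-frozen. Separate embryos or litters are not named in the labels, and the p-values describe only how these samples vary, a spread that may be technical.

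Basement membranes are thin sheets of extracellular matrix on which endothelial and epithelial cells rest. Each laminin is a trimer of an alpha, a beta and a gamma chain that polymerises at the cell surface, where integrins and dystroglycan bind it. Nidogens bridge laminin and type IV collagen, and perlecan and agrin carry heparan sulfate chains that bind growth factors. In the lung, the capillary and alveolar basement membranes fuse into the thin layer across which gas is exchanged.

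The arrays did not separate cleanly by genotype label. Sash1 itself had log2 signals of 9.02, 8.73 and 8.33 on the arrays labelled wild-type 1 to 3, and of 8.29, 8.21, 8.68 and 8.13 on those labelled knockout 1 to 4. Wild-type 3 was the lowest wild-type array for Sash1 but still lay above knockout 1, 2 and 4. Knockout 3 lay above wild-type 3, so the groups overlapped. The Sash1 difference was -0.37 (95% interval -0.83 to 0.10, limma adjusted p = 0.971, exact permutation p = 0.143). It was -0.665 with both replicate 3 arrays left out and -0.20 without wild-type 1. On a linear scale the knockout Sash1 signal was 77.6% of wild-type (56.3% to 107%). Every knockout array kept a Sash1 signal of at least 8.13, against medians of 3.86 to 4.03 over all probe sets of an array. Why the signal remained was not tested. On the leading principal component of all genes tested except Sash1 (36.5% of the variance), knockout 3 (21.0) lay with wild-type 1 and 2 (29.6 and 18.1). Wild-type 3 (-23.2) lay with knockout 1, 2 and 4 (-10.2, -20.3 and -15.0). A list of immediate early genes, which also holds the heat shock genes Hspa1a and Hspa1b, had means of 8.96 and 8.72 on wild-type 1 and 2. Its mean was 9.28 on knockout 3, 7.30 on wild-type 3 and 8.46, 7.29 and 6.66 on knockout 1, 2 and 4. The part of this list in the component was not tested. Whether the labels of the replicate 3 arrays were exchanged was not tested. Wild-type and knockout therefore stand throughout for the labels of the arrays, every direction rests on them, and main results are also given without both replicate 3 arrays. The endothelial markers Pecam1 (11.03 to 11.21) and Cdh5 (11.83 to 11.97) were high on all 7 arrays. Some transcripts known from other cells also had high signals, among them Col1a2 of fibroblasts (means 10.08 and 10.16) and Lyz2 of macrophages (9.74 and 9.055 on wild-type and knockout arrays). These were the brightest markers of their lists. Others were much lower, with means over 7 arrays of 6.53 for Col1a1, 5.27 for Lum, 4.15 for Csf1r and 3.40 for Adgre1. All 15 lung epithelial, 13 fibroblast and mural, 6 mesothelial and 10 leukocyte markers passed the filter on dim genes, which does not show that each was detected. The surfactant gene Sftpc was at or above 11.86 on 6 arrays and at 10.2 on knockout 4.

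Promoter sequences are shown for 3 laminin chain genes whose values followed different patterns across the arrays. Lama5 and Lamb2 were highest on knockout 3 and lowest on knockout 4, whereas Lamb1 was lowest on knockout 3 and highest on knockout 4, and these genes were picked after their values were seen. Each sequence is the 250 bases before the RefSeq transcript start in GRCm38.p6, read 5′ to 3′ on the strand of the gene, and capitals mark GC boxes (GGGCGG or its reverse complement CCGCCC, which Sp-family factors bind).
Lama5 (chr2:180225860-180226109, minus strand): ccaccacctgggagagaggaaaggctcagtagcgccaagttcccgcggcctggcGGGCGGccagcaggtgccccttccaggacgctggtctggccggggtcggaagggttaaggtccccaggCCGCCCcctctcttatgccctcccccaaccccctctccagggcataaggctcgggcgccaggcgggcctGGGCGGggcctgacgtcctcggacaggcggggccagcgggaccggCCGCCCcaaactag
Lamb1 (chr12:31265043-31265292, plus strand): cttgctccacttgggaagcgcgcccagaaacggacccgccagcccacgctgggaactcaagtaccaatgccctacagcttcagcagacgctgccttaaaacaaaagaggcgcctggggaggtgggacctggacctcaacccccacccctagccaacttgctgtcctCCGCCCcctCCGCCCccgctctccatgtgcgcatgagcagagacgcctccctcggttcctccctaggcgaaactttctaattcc
Lamb2 (chr9:108479612-108479861, plus strand): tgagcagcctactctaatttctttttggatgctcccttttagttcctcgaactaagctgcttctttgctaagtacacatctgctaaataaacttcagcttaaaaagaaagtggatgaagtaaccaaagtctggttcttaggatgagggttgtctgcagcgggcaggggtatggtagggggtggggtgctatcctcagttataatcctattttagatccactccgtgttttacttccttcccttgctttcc
The Lama5 window held 4 GC boxes and was 72.4% G or C. In the Lamb1 window there were 2 GC boxes and 1 CCAAT box (CCAAT or ATTGG), and 62.0% of bases were G or C. No GC box was found in the Lamb2 window, of which 43.6% of bases were G or C. RefSeq windows were matched for 6 of the 10 genes (Lama5, Lamb1, Lamb2, Nid1, Hspg2 and Agrn, which has 2 starts), and 6 of these 7 windows held a GC box, 2 a CCAAT box and 0 a TATA box (TATAAA or TTTATA). Among all 32851 windows of that length, 32.7% held a GC box, 4.09% held 4 or more, 33.8% held a CCAAT box and 12.4% a TATA box, and the median was 52.4% G or C. A match is a description of these letters and does not show that a factor binds there.

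No laminin, nidogen or proteoglycan gene passed the test between the labels. With limma and Benjamini-Hochberg adjustment over all genes tested, 0 of the 10 had an adjusted p under 0.05, against a background of 0% of the 16637 genes. At an unadjusted limma p under 0.05 the count was again 0 of 10, against 3.34% of all genes (556 genes, or 417 without variance moderation, 1314 without wild-type 3 and 295 without wild-type 2). The groups overlapped for all 10 genes, whereas 2.45% of all genes had groups that did not overlap. The knockout mean lay above the wild-type mean for 7 of 10, against 53.9% of all genes tested, and for 8 of 10 after median centring, against 68.6%. That count was 4 of 10 with array weights and 5 of 10 without wild-type 3 or without knockout 2, so the split of directions is not stable. Adjusted p-values of the 10 genes ran from 0.971 to 1. Exact permutation p-values ran from 0.371 to 1, and the smallest that 7 arrays can give is 0.0286. A lower signal could reflect fewer cells of a type or less RNA per cell, which cannot be told apart in sorted bulk samples.

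**Figure D1:**
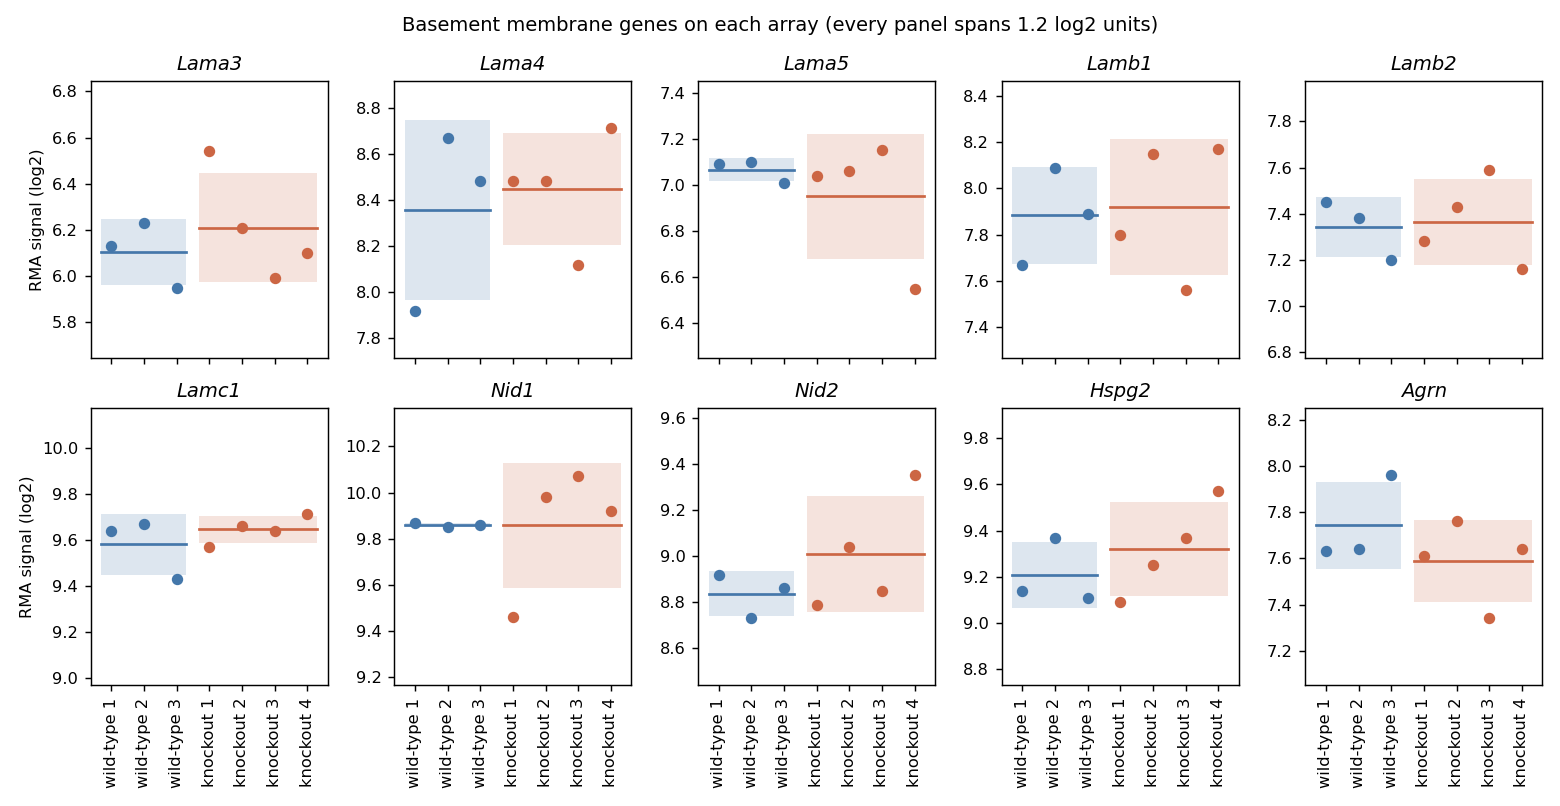
RMA signal (log2, vertical axis) of the 10 basement membrane genes on each of the 3 arrays labelled wild-type (blue) and 4 labelled knockout (red), with the group mean as a line and ± 1 SD shaded; every panel spans 1.2 log2 units. The groups overlap in every panel, and Lama5 on knockout 4 (6.55) and Lama4 on wild-type 1 (7.92) lie lowest within their genes.

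Among the alpha chains, Lama4 encodes the chain that is abundant in endothelial and muscle basement membranes. Its log2 signals were 7.92, 8.67 and 8.48 on wild-type 1 to 3 and 8.48, 8.48, 8.12 and 8.71 on knockout 1 to 4. Wild-type 1 was lowest and knockout 4 highest, and the other wild-type arrays lay within the knockout values. The means were 8.36 ± 0.39 (SD, n = 3) and 8.45 ± 0.24 (SD, n = 4), and the difference was 0.09 (95% interval -0.40 to 0.58, limma adjusted p = 0.984). On a linear scale the knockout signal was 106% of wild-type (75.7% to 150%), the widest interval of the 10 genes. Without wild-type 1 the Lama4 difference was -0.13, and without wild-type 2 it was 0.25.

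Lama5 encodes a long alpha chain found in both endothelial and epithelial basement membranes. Its signals were 7.09, 7.10 and 7.01 on wild-type 1 to 3 and 7.04, 7.06, 7.15 and 6.55 on knockout 1 to 4. The values lay close together except on knockout 4, which stood below them. The means were 7.07 ± 0.05 (SD, n = 3) and 6.95 ± 0.27 (SD, n = 4), a difference of -0.12 (95% interval -0.47 to 0.24, limma adjusted p = 0.972), and without knockout 4 the difference was 0.02. The list of lung epithelial markers had its lowest mean on knockout 4 as well, at 6.43, against 7.30 to 7.87 on the other knockout arrays and 7.11 to 8.02 on wild-type arrays. The surfactant and alveolar type II genes Lamp3 (2.97), Sftpa1 (4.70), Sftpb (6.13), Sftpc (10.2) and Abca3 (6.85) were lowest on knockout 4. So were Epcam (4.06), Cdh1 (6.88), Rtkn2 (6.13), Scgb1a1 (8.12) and Foxj1 (4.84), whereas Nkx2-1 (5.9), Ager (9.99), Hopx (5.61), Krt8 (6.94) and Krt18 (7.15) were not. The leukocyte marker list also had its lowest mean there, at 4.31, against 4.75 to 5.07 and 4.76 to 5.24. Of its genes, Ptprc (3.51), Cd68 (4.74), Lyz2 (7.22) and Adgre1 (3.03) were lowest on knockout 4. Cd14 (4.09), C1qa (3.97), C1qb (4.28), Csf1r (4.14), Cd3e (4.12) and Cd79a (4.01) were not. The part of these 2 lists in the Lama5 value was not tested.

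Lama3, which encodes an alpha chain known mainly from epithelial basement membranes, had signals of 6.13, 6.23 and 5.95 on wild-type 1 to 3 and of 6.54, 6.21, 5.99 and 6.10 on knockout 1 to 4. Knockout 1 was the highest array and wild-type 3 the lowest. The difference was 0.11 (95% interval -0.24 to 0.45, limma adjusted p = 0.972), from means of 6.10 ± 0.14 (SD, n = 3) and 6.21 ± 0.24 (SD, n = 4). Without knockout 1 the Lama3 difference was -0.0033.

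Of the beta chains, Lamb1 is the most widely used in embryonic tissues. Its signals were 7.67, 8.09 and 7.89 on wild-type 1 to 3 and 7.80, 8.15, 7.56 and 8.17 on knockout 1 to 4. Knockout 4 was highest and knockout 3 lowest, so the knockout values enclosed the wild-type ones. The means of 7.88 ± 0.21 (SD, n = 3) and 7.92 ± 0.29 (SD, n = 4) differed by 0.04 (95% interval -0.39 to 0.46, limma adjusted p = 0.997).

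Lamb2 encodes the beta chain known from neuromuscular, glomerular and vascular basement membranes. Its signals were 7.45, 7.38 and 7.20 on wild-type 1 to 3 and 7.28, 7.43, 7.59 and 7.16 on knockout 1 to 4. The order of knockout 3 and knockout 4 was the reverse of that for Lamb1, with knockout 3 highest and knockout 4 lowest. The means of 7.34 ± 0.13 (SD, n = 3) and 7.37 ± 0.19 (SD, n = 4) differed by 0.02 (95% interval -0.28 to 0.32, limma adjusted p = 1). Without knockout 3 the Lamb2 difference was -0.05.

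Lamc1, the gamma chain present in most laminins, was the steadiest of the 10 genes. Its signals were 9.64, 9.67 and 9.43 on wild-type 1 to 3 and 9.57, 9.66, 9.64 and 9.71 on knockout 1 to 4. All but wild-type 3 lay between 9.57 and 9.71, and the range over 7 arrays was 0.28, with 11% of genes tested having a smaller one. The means were 9.58 ± 0.13 (SD, n = 3) and 9.65 ± 0.06 (SD, n = 4), and the interval of the difference, -0.15 to 0.28, was the narrowest of the 10 (limma adjusted p = 0.972). In linear terms the knockout signal was 105% of wild-type (90.1% to 122%).

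Nid1 encodes nidogen-1, the main bridge between laminin and type IV collagen. Its signals were 9.87, 9.85 and 9.86 on wild-type 1 to 3 and 9.46, 9.98, 10.07 and 9.92 on knockout 1 to 4. The wild-type arrays were nearly equal, and the knockout arrays lay on both sides of them, with knockout 1 lowest and knockout 3 highest. The means were 9.86 ± 0.01 (SD, n = 3) and 9.86 ± 0.27 (SD, n = 4), a difference of -0.0025 (95% interval -0.36 to 0.35, limma adjusted p = 1). A second Nid1 probe set with the same symbol read 9.33, 9.33 and 9.32 on wild-type 1 to 3 and 9.15, 9.42, 9.37 and 9.33 on knockout 1 to 4. Knockout 1 was lowest on that probe set too, and its difference was -0.0092.

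Nid2, the second nidogen, had the difference of largest size among the 10 genes. Its signals were 8.92, 8.73 and 8.86 on wild-type 1 to 3 and 8.79, 9.04, 8.85 and 9.35 on knockout 1 to 4. Knockout 4 was highest, knockout 1 and 3 lay within the wild-type values, and wild-type 2 was lowest. The difference was 0.17 (95% interval -0.18 to 0.52, limma adjusted p = 0.971, exact permutation p = 0.4), from means of 8.84 ± 0.10 (SD, n = 3) and 9.01 ± 0.25 (SD, n = 4). The knockout signal was 113% of wild-type (88.5% to 143%). Of all genes tested, 31.1% had a difference of larger size, and without knockout 4 the Nid2 difference was 0.06.

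Hspg2 encodes perlecan, a large heparan sulfate proteoglycan of endothelial matrix. Its signals were 9.14, 9.37 and 9.11 on wild-type 1 to 3 and 9.09, 9.25, 9.37 and 9.57 on knockout 1 to 4. Knockout 4 was highest and knockout 1 lowest, with the wild-type arrays between them. The means of 9.21 ± 0.14 (SD, n = 3) and 9.32 ± 0.20 (SD, n = 4) differed by 0.11 (95% interval -0.20 to 0.43, limma adjusted p = 0.971). Without knockout 4 the Hspg2 difference was 0.03.

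Agrn encodes agrin, which binds laminin and dystroglycan and organises neuromuscular synapses. Its signals were 7.63, 7.64 and 7.96 on wild-type 1 to 3 and 7.61, 7.76, 7.34 and 7.64 on knockout 1 to 4. Wild-type 3 stood highest and knockout 3 lowest. For Sash1, wild-type 3 was the lowest wild-type array and knockout 3 the highest knockout array. The difference was -0.16 (95% interval -0.47 to 0.16, limma adjusted p = 0.971, exact permutation p = 0.371), from means of 7.74 ± 0.19 (SD, n = 3) and 7.59 ± 0.18 (SD, n = 4). With both replicate 3 arrays left out, the Agrn difference was 0.035.

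**Figure D2:**
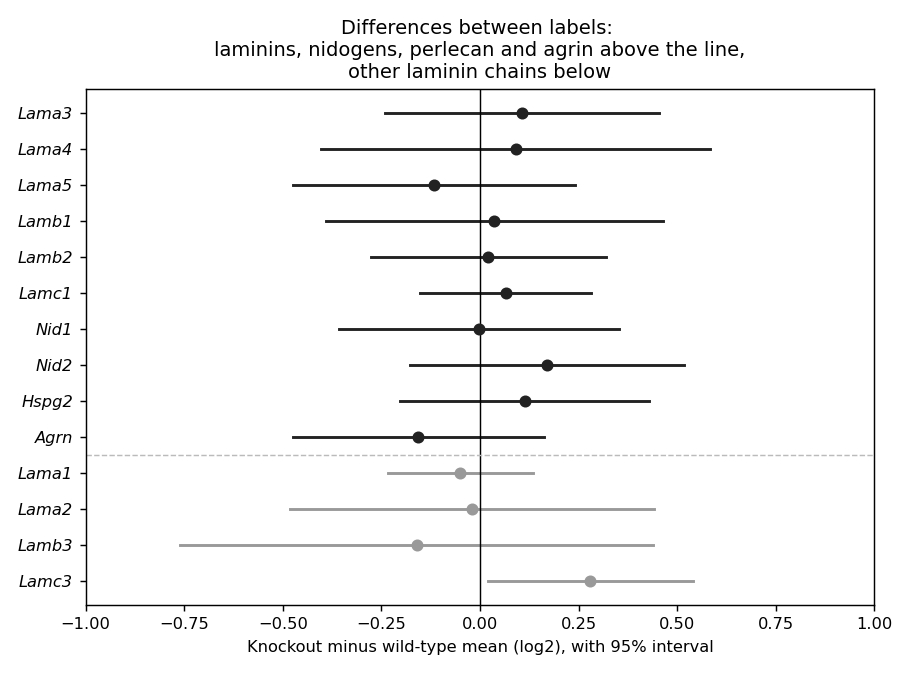
Knockout minus wild-type mean (log2, horizontal axis) with 95% limma intervals for the 10 basement membrane genes (black) and 4 other laminin chain genes (grey). All 10 black intervals include 0, and the grey interval of Lamc3 (0.02 to 0.54) does not.

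The differences of the 10 genes were about as large as those of other genes. Their median difference was 0.05 and the median of all genes tested was 0.015. In size, regardless of sign, the medians were 0.0988 and 0.1075. Their median range over the 7 arrays was 0.605, against 0.6 for all genes tested. Every 95% interval of the 10 genes included 0 and lay within 0.584 log2 units of it, but the limit widened to 0.908 with both replicate 3 arrays left out, 0.789 without wild-type 2 and 0.768 without wild-type 3. With both replicate 3 arrays left out, the median difference was 0.04, Lama4 and Nid2 differed by 0.26 and 0.24, and Lama5 and Lamb2 by -0.21 and -0.125.

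**Figure D3:**
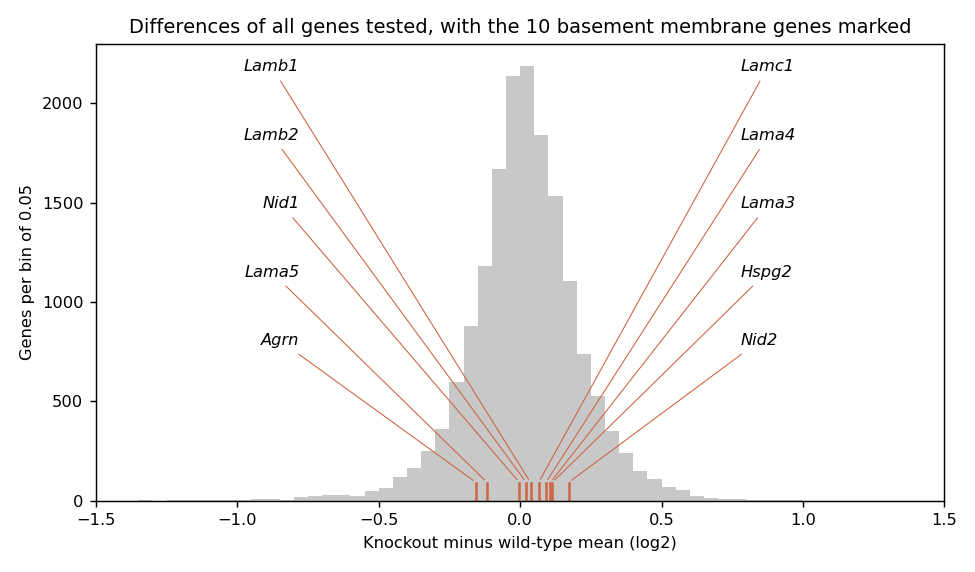
Number of genes (vertical axis) by knockout minus wild-type difference (log2, horizontal axis, bins of 0.05) over the 16637 genes tested, with the 10 basement membrane genes marked in red; 2 genes lie beyond the plotted range. The red marks lie between -0.16 and 0.17, in the centre of the distribution.

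No array moved all 10 genes together. Knockout 4 was highest for Lama4, Lamb1, Lamc1, Nid2 and Hspg2 and lowest for Lama5 and Lamb2. Knockout 3 was highest for Lama5, Lamb2 and Nid1 and lowest for Lamb1 and Agrn. Knockout 2 was neither highest nor lowest for any of the 10 and lay above the gene's own mean for 9 of them. The median of all genes tested was also highest on knockout 2, at 5.41 against 5.30 to 5.33 on the other arrays. The share of all genes above their own mean on that array was not counted, so the 9 of 10 has no background. Other marker lists varied over the same arrays. The immediate early list, which rises with cell stress, had a mean of 9.28 on knockout 3 and of 6.66 on knockout 4, and ran from 7.30 to 8.96 on wild-type arrays. The fibroblast and mural list ran from 6.89 to 7.55 on knockout arrays and from 6.89 to 7.39 on wild-type arrays. The mesothelial list ran from 5.27 to 5.77 and from 5.07 to 6.07, and the pan-endothelial list from 10.31 to 10.51 and from 10.34 to 10.43. The part of these lists in the array pattern of the laminins and nidogens was not tested.

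**Figure D4:**
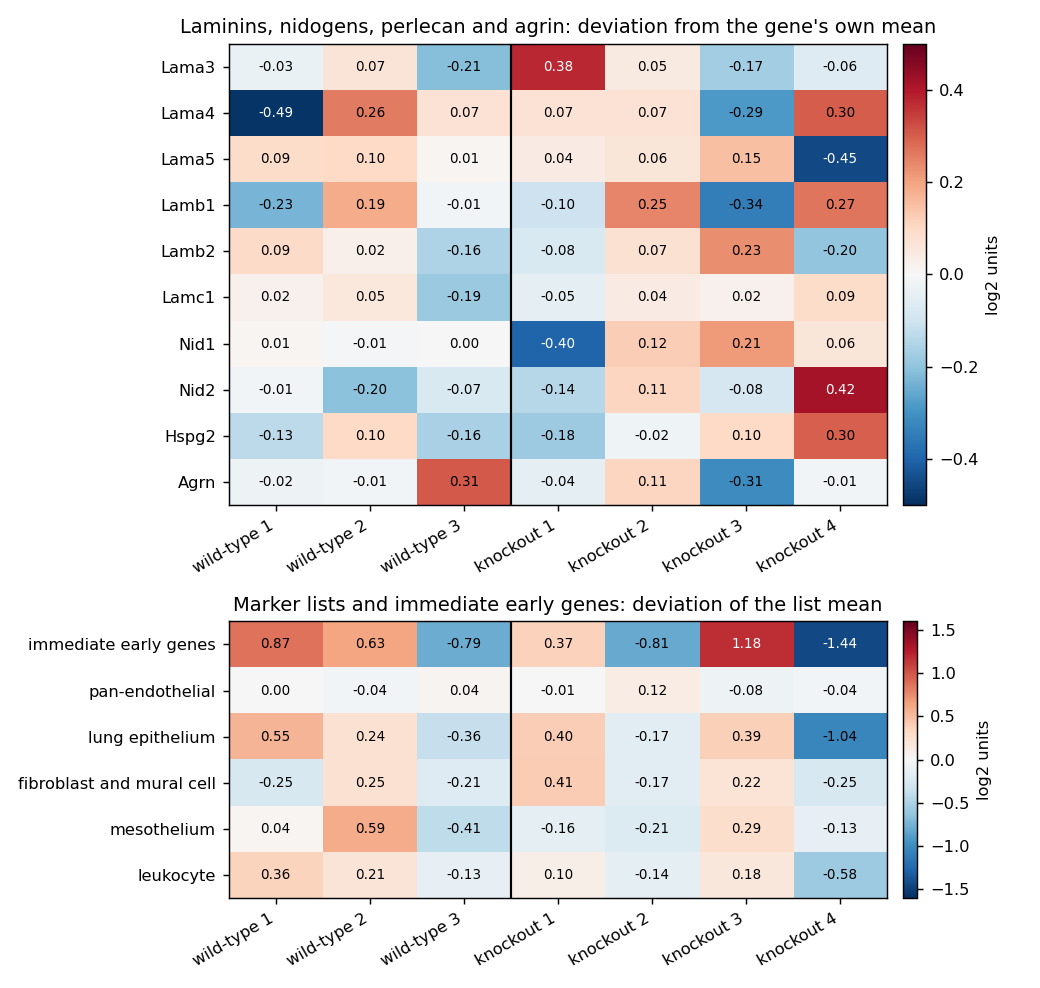
Deviation of each array from the gene's own mean (log2, colour and printed value) for the 10 basement membrane genes (top) and deviation of the list mean for marker lists and immediate early genes (bottom), with wild-type arrays left of the line and knockout arrays right of it. Knockout 4 is at 0.42 for Nid2 and -0.45 for Lama5 within the top panel.

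Ratios within an array were taken for 5 pairs of genes with related roles, chosen after their values were seen, with exact permutation tests adjusted over the 5. The log2 ratio of Lama4 to Lama5 was 0.83, 1.57 and 1.47 on wild-type 1 to 3 and 1.44, 1.42, 0.97 and 2.16 on knockout 1 to 4. Its means differed by 0.21 (exact permutation p = 0.571, adjusted 0.714). The log2 ratio of Lamb1 to Lamb2 was -0.03 on knockout 3 and 1.01 on knockout 4, with wild-type arrays at 0.22, 0.71 and 0.69 in between. Its mean differed by 0.015 (exact permutation p = 0.914). The differences were 0.22 for Lama3 to Lama5, -0.17 for Nid1 to Nid2 and 0.27 for Hspg2 to Agrn, with exact permutation p-values of 0.314, 0.371 and 0.286. None passed, and adjusted values ran from 0.619 to 0.914.

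The other laminin chain genes Lama1, Lama2, Lamb3 and Lamc3 were measured on the same arrays, and 0 of these 4 passed the limma test (adjusted p 0.971 to 1). Lamc3, a gamma chain gene, had signals of 6.03, 5.89 and 5.87 on wild-type 1 to 3 and of 6.08, 6.44, 6.17 and 6.15 on knockout 1 to 4. Every knockout array lay above every wild-type array, as for 2.45% of all genes without overlap in either direction. The Lamc3 difference was 0.28 (95% interval 0.02 to 0.54, limma adjusted p = 0.971, exact permutation p = 0.0571). Lama1 differed by -0.05, Lama2 by -0.02 and Lamb3 by -0.16, and all 3 intervals included 0. Lama1 had a mean signal of 4.43 and dropped out when the dimmest 50% of genes were left out.

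Genes that work with laminins, nidogens and proteoglycans gave 0 calls in every list (limma adjusted p). Of 12 basement membrane collagen genes, 9 had a higher and 3 a lower knockout mean, with a median difference of 0.02. Col4a2, a chain of the main type IV collagen, was at 0.10, Col4a5 at 0.11 and Col8a1 at 0.395. Their mean signals were 8.83, 4.42 and 4.37, and Col4a5 and Col8a1 dropped out when the dimmest 50% of genes were left out. Of 17 other basement membrane glycoprotein genes, 10 were higher and 7 lower, with a median of 0.03. Egflam, which encodes the dystroglycan ligand pikachurin, was at 0.25, Hmcn1 at -0.22 and Fras1 at -0.13. These differences did not pass the test, and Fras1 was at -0.0025 without wild-type 2, Egflam at 0.11 without wild-type 3 and Col8a1 at 0.15 without knockout 3.

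Receptors of laminin, agrin and perlecan comprised 14 tested genes of 15, since Musk fell below the filter, and 5 were higher and 9 lower with a median of -0.0075. The agrin receptor gene Lrp4 differed by 0.24, the syndecan gene Sdc4 by -0.39 and Itga3, a subunit of a laminin-binding integrin, by -0.32. Itga3 was at -0.08 and Lrp4 at 0.125 without wild-type 1, and Sdc4 was at -0.19 without knockout 4. For heparan sulfate enzymes, 16 of 17 were tested, 11 were higher and 5 lower, and the median was 0.055. The sulfotransferase gene Ndst2 differed by -0.355 (95% interval -0.68 to -0.03, limma adjusted p = 0.971), B3gat3 by 0.22 and Hs3st1 by 0.36, the last being 0.13 without wild-type 3. Enzymes that build the laminin-binding glycan of dystroglycan were measured for 7 of 11 genes, of which 5 were higher and 2 lower with a median of 0.0825. Among them, Pomt2 differed by 0.40, Pomk by 0.30 and Pomgnt2 by 0.22, and none passed. Pomgnt2 had a mean signal of 4.41 and dropped out when the dimmest 50% of genes were left out. Without wild-type 1, Pomt2 was at 0.18 and Pomk at 0.13, and without knockout 2 Pomgnt2 was at 0.07.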

How the data were processed

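RNA from sorted lung endothelial cells, with an integrity number above 7 per the labels, was amplified, labelled and hybridised to 1-colour Affymetrix arrays. The deposited values are log2 signals per probe set, made with RMA in Affymetrix Expression Console 1.1 per the submitters' processing notes; the log scale follows from their range. RMA gives the probe intensities of each array the same distribution, so most of a shift shared by most genes would not be seen. The resulting probe set values were not fully equal between arrays, with medians of 3.86 to 4.03. For the array annotation, the genome build is not given in the sources used here. Of 41345 probe sets, 23521 had 1 gene symbol, 1814 several and 16010 none; 99.2% of gene identifiers were found in a RefSeq table. The brightest probe set represented a gene, and the dimmest 25% of genes (means below 2.98) were left out. Knockout was tested against wild-type with lmFit and eBayes of limma 3.58.1 in R 4.3.3, two-sided, with Benjamini-Hochberg adjusted p under 0.05 over all genes tested; 95% intervals come from that fit. Exact permutation tests, two-sided, used the 35 ways to divide 7 arrays into 3 and 4. The fit was tested on simulated data. Arrays have no sequencing depth, so their number limits precision.

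Named were the 10 genes, Sash1, the sorting antigens' genes, all measured other laminin chain genes, the 3 genes of smallest unadjusted p of each related list and the 2 brightest markers of each cell type list. The 10 genes and the 12 other lists were chosen with earlier results of these data known. No array was dropped or imputed. Alternatives were other filters, normalizations, variance moderation, array weights, probe sets, a replicate block, a threshold of 0.1 and arrays left out. Promoters are RefSeq sequences of GRCm38.p6.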

Additional observations from a re-analysis of the deposited data

Results flagged for a closer look

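In groups of 4 arrays, a gap test for a single distant array (Dixon's test at the 95% level) was run on the 4 knockout-labelled arrays for 63 measures (genes, list means and within-array ratios), and 5 stood out; chance alone picks about 1 in 20. None of the 5 was a laminin, nidogen or proteoglycan gene. Knockout 4 was lowest for Ptprc, the gene of CD45, at 3.51 against 4.57 to 4.72 on the other knockout arrays. Epcam, the gene of CD326, was at 4.06 there against 5.14 to 5.19. Sftpc was at 10.2 there against at least 11.86 on the others. Knockout 3 was highest for the heparan sulfate sulfotransferase gene Hs3st1, at 5.66 against 4.97 to 4.99, and for the mean of the mesothelial markers, at 5.765 against 5.27 to 5.35.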

How the results depend on the processing

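Under all 20 alternatives, 0 of the 10 genes and 0 of all genes had an adjusted p past the threshold, 0.1 included; genes at an unadjusted limma p under 0.05 numbered 225 (fixed replicate block) to 1779 (both replicate 3 arrays left out), 1310 with array weights and 1314 without wild-type 3. The median difference of the 10 genes ran from -0.006 (array weights) to 0.11. Nid2 and Hspg2 kept their direction throughout; the other 8, and 13 further named genes, took the opposite sign in some alternative, and the cause was not tested. Quantile normalization gave -0.021 for Pecam1, 0.0067 for Lama1 and 0.0074 for Lama2. Median centring, which moved the median of all genes to 0.07, gave 0.055 for Nid1, 0.0075 for Lama1, 0.0375 for Lama2 and 0.0058 for Cdh5. Array weights gave -0.0019 for Lama4, -0.069 for Lamb1, -0.010 for Lamb2, -0.12 for Msln and -0.017 for Krt19. Same-numbered arrays did not deviate together (correlations -0.18, -0.20 and -0.55). Because any other difference between arrays enters these correlations, they cannot show whether same-numbered arrays shared a litter or a batch. A fixed replicate block, in which knockout 4 has no partner, gave the same differences as leaving out knockout 4. They were 0.017 for Lama5, -0.047 for Lamb1, 0.12 for Epcam, 0.14 for Lama2 and 0.013 for Sftpc. A random replicate block gave 0.0029 for Nid1 and -0.0044 for Pecam1. Neither replicate block made a call. Without both replicate 3 arrays, the values were -0.125 for Lamb2, -0.0083 for Lamc1, 0.035 for Agrn, -0.058 for Col4a5, -0.038 for Hs3st1, -0.12 for Ager, -0.058 for Col1a2, -0.44 for Msln and -0.25 for Krt19. With 1 array left out at a time, the range was -0.0033 to 0.18 for Lama3, -0.13 to 0.25 for Lama4, -0.18 to 0.017 for Lama5, -0.07 to 0.16 for Lamb1, -0.053 to 0.09 for Lamb2, -0.01 to 0.11 for Lamc1, -0.073 to 0.13 for Nid1, -0.027 to 0.033 for Pecam1, -0.34 to 0.12 for Epcam, -0.16 to 0.14 for Lama2, -0.31 to 0.01 for Lamb3, -0.59 to 0.013 for Sftpc, -0.115 to 0.375 for Ager, -0.07 to 0.26 for Col1a2, -0.33 to 0.40 for Msln and -0.23 to 0.325 for Krt19.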

Other observations

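Markers of other cell types and immediate early genes, measured on the same arrays, gave 0 calls in every list (limma adjusted p of at least 0.971). Of the 14 genes on the immediate early list, 2 had a higher and 12 a lower knockout mean, with a median difference of -0.435. The list also holds Socs3 and the heat shock genes Hspa1a and Hspa1b. That median rested on single arrays: leaving out knockout 4 gave 0.03, leaving out wild-type 1 gave -0.06, leaving out wild-type 3 gave -1.025, and with both replicate 3 arrays removed it was -1.55. Among them, Ier3 differed by 0.44, the transcription factor gene Fosb by -0.82 and the phosphatase gene Dusp1 by -0.49. Lung epithelial markers had 3 of 15 higher and 12 lower, with a median of -0.15, and Sftpc differed by -0.42 and Ager by 0.20; the median was 0.013 without knockout 4 and -0.43 without wild-type 3. Leukocyte markers had 1 of 10 higher and 9 lower, with a median of -0.26; Lyz2 differed by -0.685 and Cd68 by -0.52. Without knockout 4 these were -0.105 for the leukocyte median, -0.073 for Lyz2 and -0.25 for Cd68. Fibroblast and mural markers had 10 of 13 higher and 3 lower, with a median of 0.11, which was 0.0125 without wild-type 3 and -0.03 without knockout 1. The mesenchymal transcription factor gene Tcf21 was the 1 marker of that list without overlap (1 of 13, against 2.45% of all genes tested), at 8.38, 8.32 and 8 on wild-type 1 to 3 and 8.55, 8.47, 8.81 and 8.99 on knockout 1 to 4. Its difference was 0.47 (95% interval 0.10 to 0.85, limma adjusted p = 0.971, exact permutation p = 0.0571). Col1a2 differed by 0.07. Mesothelial markers had 3 of 6 in each direction, with a median of 0.04; Msln differed by 0.08 and Krt19 by 0.14. The largest difference of that list, named after its values were seen, was -0.94 for Upk3b (95% interval -1.87 to -0.0074, limma adjusted p = 0.971), and Lrrn4 was at -0.32. Lrrn4 had a mean signal of 3.00, close to the filter limit of 2.98. It was at 4.18 on wild-type 2 and at 2.45 to 3.07 on the other arrays. The mesothelial median was 0.28 without wild-type 2 and -0.32 without wild-type 3. Pan-endothelial markers had 4 of 8 in each direction, with a median of -0.02; Pecam1 differed by 0.0033 and Cdh5 by -0.05. Of the antigens sorted against, Ptprc differed by -0.32 and Epcam by -0.15. Without knockout 4 the differences were -0.047 for Ptprc and 0.12 for Epcam.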
